A study of Mus musculus with 30 samples.

Results

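The 10 genes *P2rx1*, *P2ry1*, *P2ry14*, *Htr2a*, *Htr2b*, *Chrm2*, *Chrm3*, *Tacr1*, *Tacr2* and *Cacna2d3*, out of 32316 gene symbols measured, were described across sorted stromal populations of the mouse gut. They encode 3 purine receptors, a pair of serotonin receptors, a pair of muscarinic acetylcholine receptors, a pair of tachykinin receptors and an auxiliary subunit of voltage-gated calcium channels. They were chosen by symbol with measured values in view. *P2rx1*, *Htr2a* and *Cacna2d3* were chosen because their levels differed strongly between populations, so these 3 genes are described without a test, and the other 7 were tested.

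Enteric nerves, enteroendocrine cells and damaged cells release ATP, serotonin, acetylcholine and tachykinins, and the muscle, pericytes and fibroblasts of the gut wall carry receptors for them. P2X receptors are cation channels opened by ATP, whereas P2Y, 5-HT2, muscarinic and tachykinin receptors couple to G proteins and in many cases raise cytosolic calcium. In gut muscle, P2Y1 is known for purinergic relaxation, the M2 and M3 receptors for cholinergic contraction and tachykinin receptors for excitatory transmission.

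Bulk RNA-seq was performed on 30 libraries from 10 populations of the lamina propria of small intestine (SI) and colon, taken after the outer muscle layers had been removed and each sorted from 3 individual, untreated C57BL6/Nrj mice of 8 to 10 weeks. All gates left out lineage-positive, CD31+, BP3+, EpCAM+ and NCAM hi cells. Pericytes of both tissues were PDGFRa-ESAM-1+PDPN- and SI smooth muscle cells (SMC) PDGFRa-ESAM-1+PDPN+; no colonic SMC were sorted. Among ESAM-1- fibroblasts (FB) of the SI, CD34+ FB were PDGFRa intCD34+ (a mixture of CD81+ and Igfbp5+ cells), Fgfr2+ FB were PDGFRa intCD34- and PDGFRahi FB were PDGFRa hiCD34-. In the colon, CD81+ FB were PDPN intCD34+CD90-, CD90+ FB were PDPN hiCD34+CD90+, Fgfr2+ FB were PDPN hiCD34+CD90- and PDGFRahi FB were PDPN+CD34-. Of the populations sorted from both tissues, only pericytes thus had the same gate. The p-values measure the spread between the 3 libraries of a population, with libraries fitted as independent. Per the paper the sorted subsets came from 3 independent experiments, so mouse and sort cannot be told apart in that spread. Both intestines came from the same mice, and since the labels do not say whether a replicate number stands for a mouse, that number was tried as a block.

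The summed estimated count per library lay between 2245052 (SI Fgfr2+ FB replicate 3) and 19096945, with a median of 9601683. Levels are given as counts scaled by library size (CPM) after TMM normalization, as mean ± SD of 3 libraries. In sorted bulk samples, fewer cells of a type and less RNA per cell cannot be told apart. The reads came from amplified RNA without molecular identifiers, so floors and bounds cover counting error only.

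The population labels were checked against marker genes. The 9 pericyte markers summed to 45623 CPM in SI pericytes and 43592 CPM in colon pericytes. The 8 smooth muscle markers summed to 21472 CPM in SI SMC and to 11846 CPM in colon pericytes, against 4688 CPM in SI pericytes. The 7 fibroblast markers reached 55529.5 CPM in SI CD34+ FB and only 1629 CPM in colon pericytes. In fibroblasts the pericyte markers summed to between 2294 and 4109 CPM in the SI and between 367 and 841 CPM in the colon. The 6 PDGFRahi FB markers summed to 12935 CPM in SI and 7364 CPM in colon PDGFRahi FB, and to at most 1494 CPM elsewhere. *Fgfr2* averaged 1647 CPM in SI and 473 CPM in colon Fgfr2+ FB, but also 366 CPM in colon CD90+ FB and 331 CPM in SI SMC. Among markers of cells that the gates were meant to remove, mast cell markers reached 2.77 CPM, glial markers 28.1 CPM, neuronal markers 9.48 CPM and epithelial markers 28.6 CPM (*Vil1* alone, SI pericyte replicate 2) at most. Platelet markers, led by *Itga2b*, reached 14.6 CPM and red blood cell markers, led by *Alas2*, 45.4 CPM. Endothelial markers, led by *Pecam1*, lay between 36.4 and 194 CPM, and the enterochromaffin markers reached 177 CPM, of which *Chga* held 176 CPM and *Tph1* 0.220 CPM. Both maxima were in SI SMC replicate 3, where the other SI SMC libraries held 58.0 and 62.9 CPM of endothelial and 4.43 and 4.04 CPM of enterochromaffin markers. That library also held the highest *P2ry1*, *P2ry14* and *Htr1b* values among SI SMC. Fibroblast markers were highest there as well, at 5218, 5370.4 and 9461 CPM in SI SMC replicates 1 to 3, against a mean of 2373 CPM in SI pericytes. The glial markers *Sox10*, *S100b* and *Gfap* stayed under 5 CPM in every library. Leukocyte markers, led by *Cd68*, stood out in SI pericyte replicate 1 at 432 CPM. The 4 markers of interstitial cells of Cajal averaged 828 CPM in SI and 812 CPM in colon pericytes, led by *Ano1*. In SI and colon PDGFRahi FB they averaged 469 and 253 CPM, led by *Etv1*. Elsewhere they averaged between 18.8 CPM (SI SMC) and 115 CPM (SI Fgfr2+ FB). Their part in the receptor values was not tested.

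**Figure D1:**
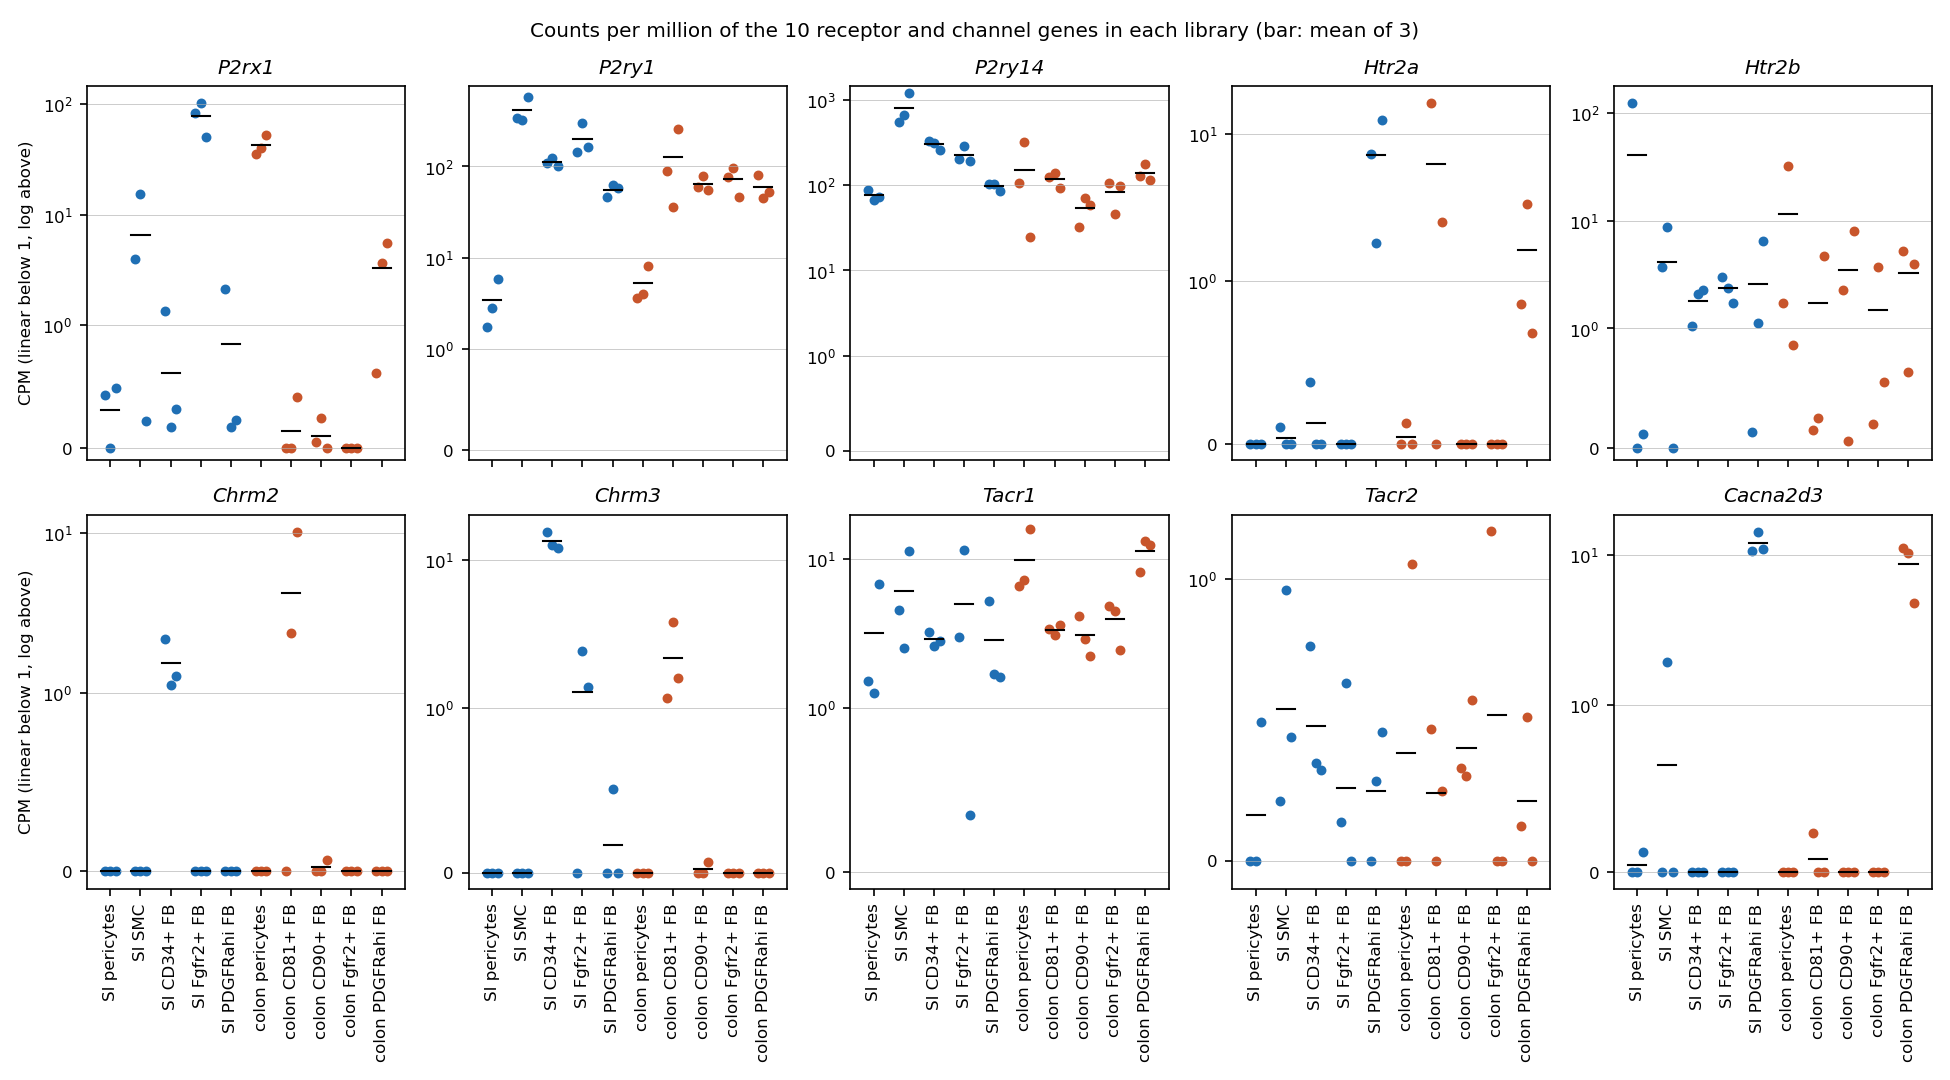
CPM of the 10 genes in each of the 30 libraries (blue, SI; orange, colon; bars, means of 3; axis linear below 1 CPM and logarithmic above). *P2ry1* and *P2ry14* had counts in all 30 libraries and peaked in SI SMC, whereas *Chrm2*, *Chrm3*, *Htr2a* and *Cacna2d3* were restricted to few populations.

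*P2ry14* and *P2ry1* were the most abundant of the 10 genes. Per kilobase of effective transcript length, the mean over 30 libraries was 133 CPM for *P2ry14* and 34.4 for *P2ry1*. *P2rx1* averaged 7.30, but its values came from few populations, and its median over the libraries was 0.423 CPM, below those of *Htr2b* (1.91 CPM) and *Tacr1* (3.47 CPM). *Htr2b* averaged 4.55 CPM per kilobase and *Tacr1* 1.1. The other 5 genes lay below, from *Chrm3* at 0.898 through *Cacna2d3* at 0.611, *Htr2a* at 0.548 and *Tacr2* at 0.168 to *Chrm2* at 0.147 CPM per kilobase. All 10 genes passed the filter of at least 6 counts in at least 3 libraries; a gene that passed only with the counts of a single population had to differ from the others, and tests of such a gene with that population are not used. Among the members this holds for *Chrm2*, which would not have passed without SI CD34+ FB.

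*P2rx1*, the ATP-gated cation channel known from smooth muscle and platelets, was highest in SI Fgfr2+ FB and in colon pericytes. The SI Fgfr2+ FB libraries held 83.2, 102 and 50.8 CPM (78.8 ± 26.1) and the colon pericyte libraries 35.3, 40.2 and 53.4 CPM (42.9 ± 9.35). The ranges of these populations overlapped, since SI Fgfr2+ FB replicate 3 lay under the highest colon pericyte library. SI SMC followed with 4.01, 15.6 and 0.220 CPM (6.61 ± 8.01) and colon PDGFRahi FB with 0.613, 3.70 and 5.56 CPM (3.29 ± 2.50), and in no other population did the mean exceed 0.847 CPM. Along the order of the 10 levels, only the step from colon pericytes down to SI SMC separated neighbouring populations; the other 8 steps overlapped.

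*P2rx1* differed between the tissues in pericytes, which had the same gate, and in Fgfr2+ FB, whose gates differed. SI pericytes held 0.429, 0 and 0.492 CPM, below every colon pericyte library, whereas the colon Fgfr2+ FB libraries held no count, below every SI Fgfr2+ FB library. Against the floor of 3 counts per library, SI Fgfr2+ FB exceeded colon Fgfr2+ FB at least 253-fold and colon pericytes exceeded colon Fgfr2+ FB at least 138-fold. These values chose the gene and were not tested.

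The *P2rx1* counts were split unevenly among its annotated transcripts. *P2rx1-201*, a coding transcript of 12 exons, spans the gene (GRCm38 chr11:72999103-73015200, plus strand), whereas *P2rx1-203* is a retained-intron transcript of 6 exons in its 3′ part (chr11:73009791-73015197). In SI Fgfr2+ FB, *P2rx1-203* took 1119, 811 and 33 counts, or 93.8%, 71.5% and 22.2% of the gene, and *P2rx1-201* took 74, 324 and 114 counts. In colon pericytes, *P2rx1-203* took 6, 4 and 677 counts and *P2rx1-201* 322, 315 and 66 counts. *P2rx1-201* thus held 50.6% of the summed *P2rx1* counts of colon pericytes (98.4% without replicate 3), 29.5% of those of SI SMC, 20.7% of those of SI Fgfr2+ FB (34.2% without replicate 1) and 82.4% of the 75 counts of colon PDGFRahi FB. Another coding transcript, *P2rx1-202*, held 10.2% of the latter, 0.746% in SI SMC and all 5 counts of colon CD81+ FB and of colon CD90+ FB. Replicates of a population differed widely in this split, which was not tested. *Alas2*, a red blood cell marker, held 45.4, 2.17 and 2.42 CPM in SI Fgfr2+ FB and 0.968, 0.756 and 18.6 CPM in colon pericytes, the hemoglobin genes *Hba-a1* and *Hbb-bs* had no count there except for 3.65 CPM of *Hbb-bs* in colon pericyte replicate 2, and the platelet marker *Itga2b* held 0.279, 0.722 and 7.26 CPM and 14.6, 0.756 and 3.16 CPM. The 4 platelet markers together, led by *Pf4* in SI Fgfr2+ FB, summed to 0.488, 8.94 and 7.26 CPM there. In colon pericytes they summed to 14.6, 0.756 and 3.16 CPM. Whether these are linked to *P2rx1* was not tested.

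**Figure D2:**
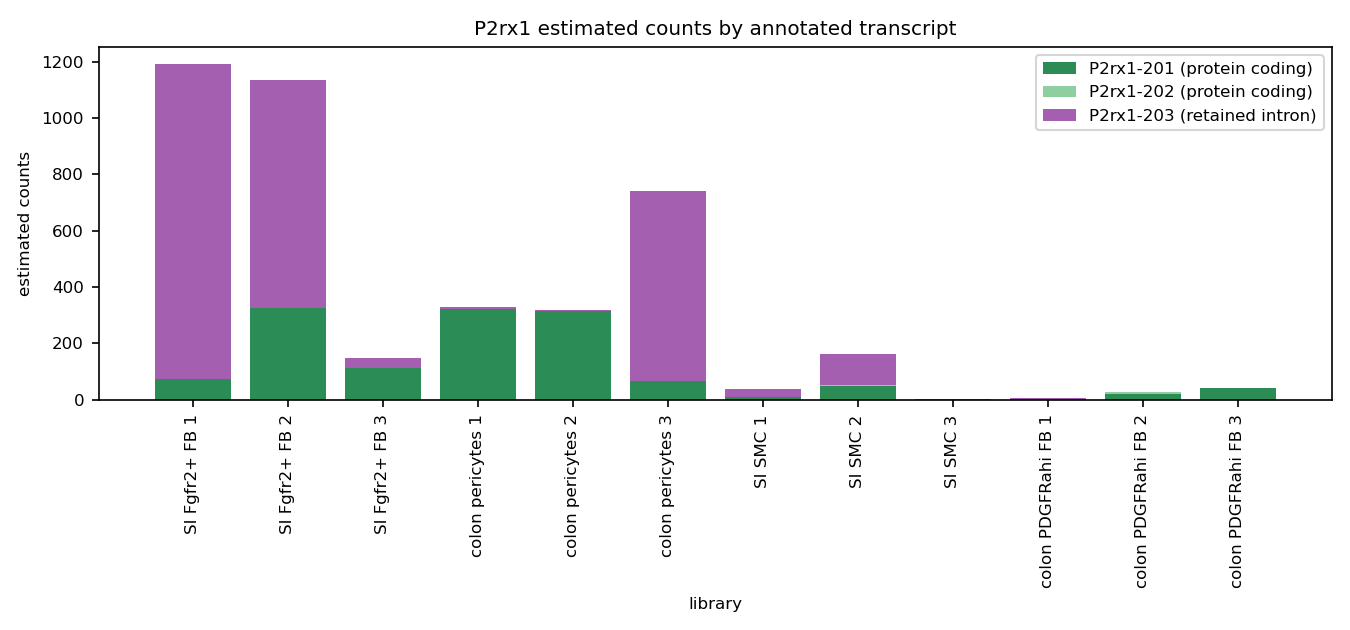
Estimated counts of the annotated *P2rx1* transcripts in each library of the 4 populations with the highest levels. The retained-intron transcript took most counts in SI Fgfr2+ FB replicates 1 and 2 and in colon pericyte replicate 3, and the coding transcript *P2rx1-201* took most in colon pericyte replicates 1 and 2.

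*P2ry1*, the Gq-coupled ADP receptor, was highest in SI SMC and lowest in pericytes of both tissues. The SI SMC libraries held 339.5, 326 and 570.4 CPM (412 ± 137), all above the SI Fgfr2+ FB libraries with 143, 300 and 164 CPM (202 ± 85.1). SI CD34+ FB held 109.7, 123 and 102 CPM and SI PDGFRahi FB 46.6, 62.5 and 57.9 CPM. Colonic fibroblasts averaged between 59.4 CPM (PDGFRahi FB) and 127 CPM (CD81+ FB), whose libraries ranged widely with 88.9, 36.4 and 256 CPM. Pericytes stood apart at the bottom, with 3.66, 4.03 and 8.11 CPM in the colon and 1.72, 2.78 and 5.78 CPM in the SI. SI PDGFRahi FB, next above the pericytes in the order of levels, still averaged 10.6 times colon pericytes. Of the 9 steps between neighbouring populations, 3 were separated and 6 overlapped.

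*P2ry14*, the receptor for UDP-glucose and related sugar nucleotides, also peaked in SI SMC. The SI SMC libraries held 543, 662 and 1187 CPM (797 ± 343), above all libraries of SI CD34+ FB with 331, 306 and 257 CPM (298 ± 37.6). SI Fgfr2+ FB averaged 224 ± 51.2 CPM, and the remaining populations lay between 53.2 CPM (colon CD90+ FB) and 151 CPM (colon pericytes). SI pericytes held 88.0, 66.9 and 71.9 CPM, within the range of the fibroblast populations, unlike their *P2ry1* values. Colon pericytes held 107, 321 and 24.8 CPM. Only the step from SI SMC to SI CD34+ FB was separated among the 9 steps.

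Which receptors distinguished mural cells from each other was tested in SI pericytes against SI SMC. *P2ry1* and *P2ry14* were the 2 of the 7 tested genes called, against 10.1% of 17542 genes, and both were lower in pericytes. Of the 7 members, 5 were testable here, the others having no count in either population. A gene was called at an adjusted p below 0.05 (edgeR quasi-likelihood test, Benjamini-Hochberg over all genes) with an absolute log2 fold change above 1.5. The log2 fold change was −6.88 ± 0.66 (SE) for *P2ry1* (adjusted p = 2.32e-08) and −3.40 ± 0.56 for *P2ry14* (adjusted p = 8.52e-05). Without SI pericyte replicate 3 the value for *P2ry1* was −7.49.

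Against the fibroblasts of the SI, pericytes and SMC moved to opposite sides in *P2ry1*. In SI SMC both receptors rose over SI fibroblasts, *P2ry1* by 1.93 ± 0.38 on the log2 scale (adjusted p = 0.00112) and *P2ry14* by 2.1 ± 0.38 (adjusted p = 3.97e-04). They were the 2 of 7 genes called (6 testable, since an average over fibroblasts needed counts in each of its populations), where 5.16% of all genes were called. In SI pericytes, 3 of 7 genes (6 testable) were called against SI fibroblasts, with 16.6% of all genes called. These were *P2ry1*, *Htr2b* and *Chrm3*, of which only *P2ry1* was called with length-scaled counts or with the replicate number as a block, and 2 of the 3 with only the populations compared in the fit. The count also came to 1 without SI CD34+ FB replicate 1 or 2, SI PDGFRahi FB replicate 2 (where *Chrm3* was not testable) or SI pericyte replicate 1, and to 2 without SI CD34+ FB replicate 3, SI Fgfr2+ FB replicate 2 or 3, SI PDGFRahi FB replicate 1 or SI pericyte replicate 2 or 3. *P2ry1* fell there (−4.95 ± 0.58, adjusted p = 2.16e-07; −5.55 without SI pericyte replicate 3). *P2ry14* had a log2 fold change of −1.3 ± 0.45 there (adjusted p = 0.0400), short of the fold threshold.

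In the colon, *P2ry1* was the only gene of the 7 (5 testable) called between pericytes and fibroblasts, where 16.0% of all genes were called, and it was lower in pericytes (−3.86 ± 0.53, adjusted p = 2.72e-06). *P2ry14* was not called (0.71 ± 0.38, adjusted p = 0.209), and its estimate rested on a single library, with −0.53 without colon pericyte replicate 2. The contrast of pericytes with fibroblasts was lower in the SI than in the colon by an interaction test for *P2ry14* (−2.01 ± 0.59, adjusted p = 0.0494), the only gene of the 7 (5 testable) called, where 3.76% of all genes were called. That call ended with 25 of 27 libraries left out in turn, and without colon pericyte replicate 2 the difference was −0.80 (adjusted p = 0.426). It also ended with the replicate number as a block (−1.86, adjusted p = 0.0841). The fibroblast populations averaged, and their gates, differed between the tissues.

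Populations of the same name were compared between SI and colon for pericytes, Fgfr2+ FB and PDGFRahi FB; in the latter 2 the gate differed along with the tissue. Of the 7 genes 5, 6 and 6 were testable, and 0 were called with edgeR or with DESeq2, where edgeR called 5.72%, 1.45% and 0.963% of all genes. At an unadjusted p under 0.05 there were 0 in pericytes (24.1% of all genes), 3 in Fgfr2+ FB (*Chrm3*, *P2ry1* and *P2ry14*; 12.6%) and 1 in PDGFRahi FB (*Tacr1*, 6.53%). In Fgfr2+ FB the log2 fold changes were 1.47 ± 0.52 for *P2ry1* (adjusted p = 0.190) and 1.43 ± 0.52 for *P2ry14* (adjusted p = 0.204). In PDGFRahi FB the *P2ry14* value was −0.53 (adjusted p = 1.00). In pericytes the *P2ry14* value was −1.0 ± 0.51 (adjusted p = 0.229) and turned to 0.19 without colon pericyte replicate 2, whereas it was called without colon pericyte replicate 3 (−1.50, adjusted p = 0.0399).

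Among fibroblasts of a tissue, PDGFRahi FB were compared with the others, and again 0 genes of the 7 (6 testable in the SI and 5 in the colon) were called with edgeR or DESeq2, against 3.38% of all genes in the SI and 3.51% in the colon. At an unadjusted p under 0.05 there were 3 genes in the SI (*Chrm3*, *P2ry1* and *P2ry14*) and 1 in the colon (*Tacr1*), with 11.1% and 11.8% of all genes. Both P2Y genes had lower estimates in SI PDGFRahi FB, at −1.43 ± 0.47 for *P2ry1* (adjusted p = 0.103) and −1.42 ± 0.47 for *P2ry14* (adjusted p = 0.107). In colon PDGFRahi FB the *P2ry14* value was 0.79 ± 0.40 (adjusted p = 0.446). A joint test of any difference among the fibroblast populations within a tissue called neither *P2ry1* (adjusted p = 0.102) nor *P2ry14* (adjusted p = 0.118), although DESeq2 called both (0.0185 and 0.0405) and *P2ry1* came to 0.0162 without colon CD81+ FB replicate 2. An interaction test called 0 of the 7 genes (5 testable) with edgeR, against 0.650% of all genes, when the contrast of PDGFRahi FB with the other fibroblasts was compared between the tissues; *P2ry14* had an unadjusted p under 0.05 there, as had 5.92% of all genes, and was the 1 gene called by DESeq2. When the tissue contrast of Fgfr2+ FB was compared with that of PDGFRahi FB, edgeR and DESeq2 called 0 of the 7 (5 testable), where edgeR called 0.661% of all genes. At an unadjusted p under 0.05 there were 2, *P2ry1* and *P2ry14*, with 7.86% of all genes.

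The other purine receptors of the stroma were taken from lists of the families. Of 7 P2X genes 5 passed the filter, and per kilobase *P2rx7*, the channel opened by high extracellular ATP, was the most abundant, from 10.9 CPM per kilobase in colon PDGFRahi FB to 331 CPM per kilobase in SI pericytes. Over all libraries it averaged 59.9 CPM per kilobase but 45.7 CPM, and which of its transcripts held the counts was not examined. *P2rx7* rose in SI pericytes over SI fibroblasts (215, 166 and 76.8 CPM; 2.89 ± 0.43, adjusted p = 1.29e-05), the reverse of *P2ry1*, and also in SI SMC (1.85 ± 0.44, adjusted p = 0.00727). *P2rx6* fell in SI pericytes with 0.215, 0 and 0.369 CPM (−6.64 ± 1.48, adjusted p = 0.00182; −6.03 without SI pericyte replicate 2 and −7.70 without replicate 3). *P2rx4* lay between 26.4 and 74.8 CPM in all 10 populations. Of the 4 adenosine receptors, 2 were called higher in pericytes of both tissues, *Adora2a* and *Adora2b*, where 16.6% (SI) and 16.0% (colon) of all genes were called. Against the floor, *Adora2a* in SI pericytes exceeded SI Fgfr2+ FB, with no count, at least 26.1-fold. That bound was 10.5-fold without SI pericyte replicate 2 and 55.1-fold without SI Fgfr2+ FB replicate 3. *Adora2b*, which couples to Gs, held 0, 15.3 and 17.8 CPM in SI pericytes (4.82 ± 1.3, adjusted p = 0.0100, or 6.49 without SI Fgfr2+ FB replicate 1). It held 1.08, 6.68 and 23.8 CPM in colon pericytes (adjusted p = 0.00130).

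Of the 13 genes of nucleotide and adenosine handling, 10 passed the filter, and changes in SI SMC went both ways. *Entpd1*, the CD39 ectonucleotidase that degrades ATP and ADP, held 445, 468 and 376 CPM in SI SMC and rose over SI fibroblasts by 4.51 ± 0.43 (adjusted p = 1.51e-08). Its mean in SI SMC was 306 times that of SI PDGFRahi FB, but 11.9 times that of SI Fgfr2+ FB and 3.26 times that of SI CD34+ FB. These are ratios of CPM, which do not account for transcript length. Per kilobase, *Entpd1* averaged 5.08 CPM in SI PDGFRahi FB, its lowest population, and 303 CPM in colon pericytes, its highest. Colon pericytes, where *P2ry1* was low, held 229, 995 and 312 CPM. Their mean was 25.8 times that of SI pericytes, where *P2ry1* was lowest. *Entpd1* was called lower in SI than in colon pericytes (−4.68, adjusted p = 6.63e-05), but not with only these populations in the fit (−4.68, adjusted p = 0.229). The value was −5.74 without SI pericyte replicate 3 and −3.79 without colon pericyte replicate 2. *Nt5e*, the CD73 enzyme that makes adenosine from AMP, held 84.5, 110.2 and 123 CPM in SI SMC and rose by 5.2 ± 0.60 (adjusted p = 4.75e-07). In SI PDGFRahi FB, where *P2ry1* was lowest among SI fibroblasts, *Entpd1* held 1.07, 1.07 and 2.07 CPM and fell against the other SI fibroblasts (−5.63 ± 0.69, adjusted p = 1.67e-06). The difference of this contrast from the colonic one was not called with length-scaled counts. In SI SMC against SI fibroblasts 4 of the 10 genes were called, where 5.16% of all genes were called, 2 of them higher and 2 lower (*Alpl* and *Entpd2*). In colon pericytes against colon fibroblasts 7 of the 10 were called, where 16.0% of all genes were called, 2 higher and 5 lower. *Enpp1*, an ectoenzyme that cleaves ATP, was among the latter (−3.41 ± 0.44, adjusted p = 8.12e-07).

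**Figure D3:**
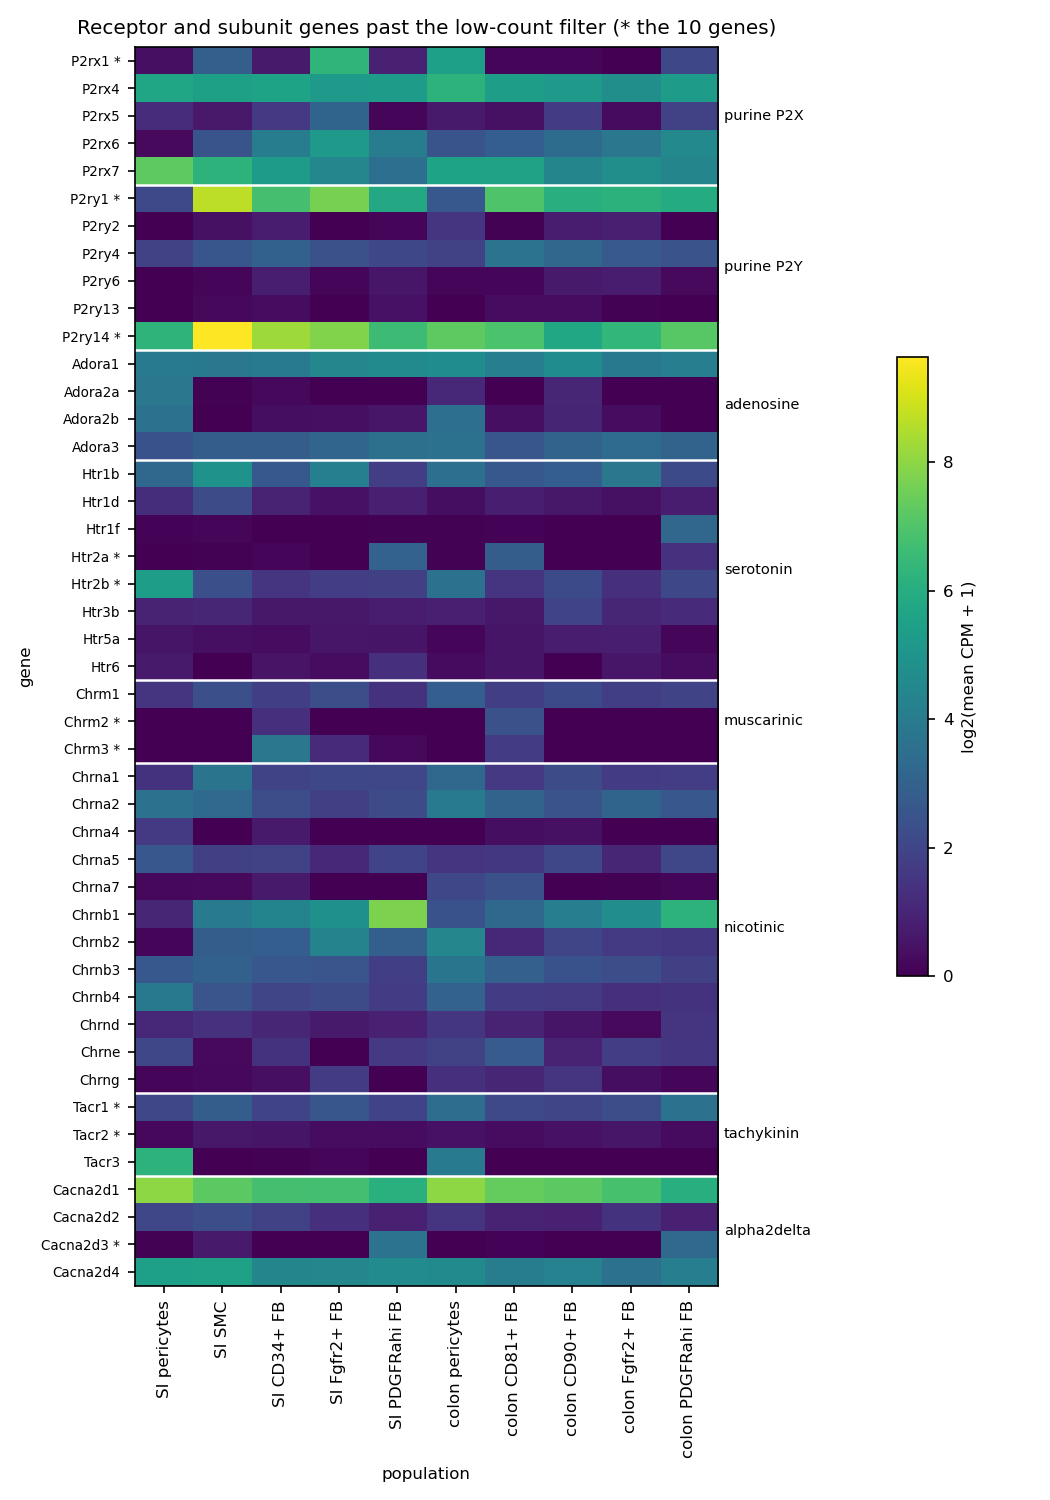
Mean level of each receptor or subunit gene past the low-count filter in the 10 populations, as log2(mean CPM + 1); the 10 genes described here are starred, and colours compare populations within a gene. *P2ry1* and *P2ry14* were brightest in SI SMC, *Chrm3* in SI CD34+ FB and *Cacna2d3* in PDGFRahi FB of both tissues.

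Among serotonin receptors, *Htr2a* appeared in few populations. Its product couples to Gq and is known for vascular and smooth muscle contraction. SI PDGFRahi FB libraries held 7.23, 1.81 and 12.4 CPM (54, 32 and 108 counts), colon CD81+ FB libraries 16.2, 0 and 2.50 CPM (207, 0 and 30 counts) and colon PDGFRahi FB libraries 0.858, 3.32 and 0.679 CPM (7, 26 and 5 counts). All PDGFRahi FB libraries held counts, whereas a single library carried most of the signal of CD81+ FB. The libraries of SI and colon PDGFRahi FB overlapped. No count was found in SI pericytes, SI Fgfr2+ FB, colon CD90+ FB and colon Fgfr2+ FB, and 3 further populations averaged 0.127 CPM or less. Against the floor, SI PDGFRahi FB exceeded SI Fgfr2+ FB at least 14.1-fold and SI pericytes at least 15.4-fold (at least 8.93-fold and 9.74-fold without SI PDGFRahi FB replicate 3; for SI Fgfr2+ FB at least 29.8-fold without its replicate 3). In the order of levels, 1 step was separated and 8 overlapped. *Htr2a* was not tested, since these values chose it.

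*Htr2b*, the other Gq-coupled serotonin receptor, had its highest means in pericytes, but they rested on single libraries. SI pericytes held 122, 0 and 0.123 CPM (570, 0 and 1 counts) and colon pericytes 1.72, 31.7 and 0.862 CPM (16, 252 and 12 counts). The other 8 populations averaged between 1.49 and 4.15 CPM, and all 9 steps of the order overlapped. With medians in place of means, the highest population was colon PDGFRahi FB. Leukocyte markers summed to 432 CPM in the high SI pericyte library and to 80.9 and 82.1 CPM in the others, and to 170.2 CPM in the high colon pericyte library and 95.3 and 30.6 CPM in the others; *Cd68* was the most abundant of these 6 markers, and their part in the *Htr2b* values was not tested.

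*Htr2b* was called higher in SI pericytes than in SI fibroblasts (4.19 ± 1.37, adjusted p = 0.0295), but not with the replicate number as a block (4.61, adjusted p = 0.0684). Without SI pericyte replicate 1 the direction turned to −4.95 (adjusted p = 0.178). The call also ended without SI CD34+ FB replicate 1 (0.0601) or 2 (0.0506), SI Fgfr2+ FB replicate 3 (0.0507) or SI PDGFRahi FB replicate 1 (0.0539) or 2 (0.0566), and the value was 4.84 without SI PDGFRahi FB replicate 3 and 4.78 without SI pericyte replicate 2 or 3. In the colon the value was 2.29 ± 1.28 (adjusted p = 0.225), with −0.87 without colon pericyte replicate 2 and 3.04 without colon CD81+ FB replicate 3. Among fibroblast populations *Htr2b* did not differ by the joint test (adjusted p = 1.00).

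Of 14 serotonin receptor genes 8 passed the filter. *Htr1f*, a Gi-coupled receptor, was found in colon PDGFRahi FB at 11.1, 5.36 and 7.87 CPM (8.13 ± 2.90) and at no more than 0.105 CPM on average elsewhere, including 0.0383 CPM in SI PDGFRahi FB; it exceeded colon Fgfr2+ FB, with no count, at least 26.1-fold. *Htr1f* passed the filter through this population alone, so no test of it with this population is used. *Htr1b* held 6.64, 27.0 and 55.1 CPM in SI SMC and was called over SI fibroblasts (2.31 ± 0.64, adjusted p = 0.0231), but not without SI SMC replicate 2 (0.0531) or 3 (1.52, adjusted p = 0.437).

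The muscarinic receptors *Chrm2* and *Chrm3* were confined to fibroblasts, and mainly to those with CD34 in the SI and CD81 in the colon. *Chrm3*, the Gq-coupled M3 receptor, held 15.4, 12.5 and 11.9 CPM in SI CD34+ FB (13.3 ± 1.90) and 1.17, 3.78 and 1.58 CPM in colon CD81+ FB (2.18 ± 1.41). These populations did not overlap. SI Fgfr2+ FB followed with 0, 2.44 and 1.38 CPM, SI PDGFRahi FB held 9 counts in a single library and colon CD90+ FB a single count. Pericytes of both tissues, SI SMC, colon Fgfr2+ FB and colon PDGFRahi FB held no *Chrm3* count. Against the floor, SI CD34+ FB exceeded SI pericytes at least 28.6-fold, SI SMC at least 42.6-fold and colon pericytes at least 43.5-fold.

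*Chrm2*, the Gi-coupled M2 receptor, was found in the 2 populations with the highest *Chrm3*. Colon CD81+ FB held 0, 38 and 123 counts (4.21 ± 5.36 CPM) and SI CD34+ FB 23, 13 and 12 counts (1.54 ± 0.572 CPM). These libraries overlapped, colon CD90+ FB held a single count, and the other 7 populations held none. SI CD34+ FB exceeded SI SMC of the lamina propria at least 4.93-fold.

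The joint test of any difference among fibroblast populations within a tissue called *Chrm3* (adjusted p = 0.00974), the only member among the 6 left without *Chrm2*, where 6.75% of all genes were called (6.88% without genes that passed the filter only with 1 of these populations). *Chrm3* kept its call with each library left out (0.00449 to 0.0305). *Chrm3* was also called lower in SI pericytes than in SI fibroblasts (adjusted p = 0.0363), with no fold estimate for want of counts in pericytes. That call ended without SI CD34+ FB replicate 1 (0.0566), 2 (0.0533) or 3 (0.0535), SI Fgfr2+ FB replicate 2 (0.0509) or SI pericyte replicate 1 (0.0894), 2 (0.0904) or 3 (0.0780). Blocking on the replicate number also ended it (0.0502). For SI SMC against SI fibroblasts the adjusted p was 0.0600 (0.0314 without SI Fgfr2+ FB replicate 1). For SI PDGFRahi FB against the other SI fibroblasts the value was −4.36 ± 1.70 (adjusted p = 0.267). Without SI PDGFRahi FB replicate 2 that population held no *Chrm3* count, so these 3 contrasts could not be estimated.

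Of the 5 muscarinic genes 3 passed the filter, the remaining one being *Chrm1* with a mean of 1.46 CPM per kilobase. Among 16 nicotinic subunit genes, *Chrnb1* was the most abundant and, unlike the muscarinic genes, marked PDGFRahi FB. It held 228, 235 and 171 CPM in SI PDGFRahi FB and 80.7, 72.5 and 67.3 CPM in colon PDGFRahi FB, and rose over the other fibroblasts of each tissue (3.19 ± 0.48, adjusted p = 4.56e-05; 2.27 ± 0.43, adjusted p = 8.22e-04). *Chrnb1* fell in pericytes against fibroblasts as *P2ry1* did, with −5.46 ± 0.68 in the SI (adjusted p = 6.02e-07) and −2.34 ± 0.54 in the colon (adjusted p = 0.00219). In SI SMC against SI fibroblasts the genes differed, *Chrnb1* being called lower and *P2ry1* higher. *Ache*, which degrades acetylcholine, rose in colon pericytes with 10.2, 60.2 and 65.2 CPM (5.05 ± 0.68, adjusted p = 1.93e-06).

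*Tacr1*, the Gq-coupled substance P receptor, was low and widespread. Colon PDGFRahi FB held 8.21, 13.3 and 12.4 CPM (11.3 ± 2.70) and colon pericytes 6.56, 7.18 and 15.9 CPM (9.89 ± 5.25). These overlapped, and below them SI SMC held 4.53, 2.50 and 11.3 CPM while the other populations averaged between 2.84 and 4.97 CPM. Counts were present in all 30 libraries, and all 9 steps of the order overlapped. SI PDGFRahi FB, at 5.22, 1.69 and 1.61 CPM, were the lowest population by mean, so that PDGFRahi FB of the tissues lay at opposite ends of the order.

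None of the *Tacr1* differences was called. The value of colon PDGFRahi FB against the other colonic fibroblasts was 1.71 ± 0.69 (adjusted p = 0.243). That between SI and colon PDGFRahi FB was −1.99 ± 0.95 (adjusted p = 0.739), or −2.76 without SI PDGFRahi FB replicate 1. Between colon pericytes and colon fibroblasts it was 1.1 ± 0.68 (adjusted p = 0.278). *Tacr2*, the neurokinin A receptor of gut muscle, reached at most 16 counts in a library and averaged between 0.164 CPM (SI pericytes) and 0.538 CPM (SI SMC), too few to order the populations. The joint test among fibroblasts gave an adjusted p of 0.692 for *Tacr1* and 1.00 for *Tacr2*.

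*Tacr3*, the neurokinin B receptor and the third gene of the family, was by contrast restricted to pericytes. SI pericytes held 9.44, 189 and 21.9 CPM and colon pericytes 0, 42.6 and 0.0718 CPM, against 0.115 CPM or less on average in every other population. SI pericytes exceeded SI SMC, with no count, at least 236-fold against the floor, and at least 50.2-fold without SI pericyte replicate 2. *Tacr3* passed the filter only with SI pericytes counted, so its tests in the SI are not used. The epithelial marker *Vil1* held 0, 28.6 and 0 CPM in these SI pericyte libraries and 0, 17.3 and 0 CPM in the colonic ones, whereas *Epcam* had no count in either population. The 4 epithelial markers summed to 0, 28.6 and 0.246 CPM in SI pericytes, where *Krt18* also had counts. They summed to 0, 19.5 and 0 CPM in colon pericytes, where *Krt8* also had counts. Whether these are linked to the *Tacr3* values was not tested. In colon pericytes over fibroblasts its call (adjusted p = 6.36e-05) ended without colon pericyte replicate 2 (0.399), the same library that carried *Htr2b*.

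*Cacna2d3*, an alpha2delta subunit that promotes surface expression of voltage-gated calcium channels, marked PDGFRahi FB of both tissues. SI PDGFRahi FB held 10.6, 14.2 and 10.9 CPM (11.9 ± 2.01; 79, 252 and 95 counts) and colon PDGFRahi FB 11.1, 10.2 and 4.75 CPM (8.70 ± 3.46; 91, 80 and 35 counts). The libraries of the tissues overlapped, with means 1.37-fold apart. Outside them *Cacna2d3* held 20 counts in a single SI SMC library, 3 in a colon CD81+ FB library and 1 in an SI pericyte library, and none in the other 5 populations. Against the floor, SI PDGFRahi FB exceeded SI CD34+ FB at least 41.1-fold and SI Fgfr2+ FB at least 23.5-fold (49.6-fold without SI Fgfr2+ FB replicate 3), and colon PDGFRahi FB exceeded colon CD90+ FB at least 50.8-fold and colon Fgfr2+ FB at least 27.9-fold. *Cacna2d3* was chosen for this pattern and was not tested.

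The other alpha2delta subunits did not share it. All 4 passed the filter, and none of the 3 tested was called in any comparison; the most abundant, *Cacna2d1*, lay between 18.7 CPM per kilobase (colon PDGFRahi FB) and 97.8 (colon pericytes), with *Cacna2d3* populations at its low end. Of 14 pore-forming and beta subunit genes 13 passed. *Cacna1g*, a T-type pore subunit, was higher in PDGFRahi FB than in the other fibroblasts, with 300.2, 332 and 152 CPM in the SI (3.00 ± 0.60, adjusted p = 0.00181) and 108, 111 and 96.4 CPM in the colon (2.86 ± 0.53, adjusted p = 7.06e-04), and fell in SI SMC (−5.18 ± 0.82, adjusted p = 6.83e-05) and SI pericytes (−5.85 ± 0.87, adjusted p = 1.14e-05; −6.61 without SI pericyte replicate 3). Unlike *Cacna2d3* it also appeared in colon pericytes with 15.2, 286 and 98.6 CPM (2.48 ± 0.49 over colonic fibroblasts, adjusted p = 4.95e-04), a call that ended without colon pericyte replicate 2 (1.27, adjusted p = 0.132). *Cacna1c*, the L-type pore of vascular and visceral muscle, averaged 16.2 CPM in SI and 18.8 CPM in colon PDGFRahi FB and rose in SI pericytes over fibroblasts (5.57 ± 0.42, adjusted p = 5.39e-11), in SI SMC (4.27 ± 0.41, adjusted p = 1.51e-08) and in colon pericytes (5.42 ± 0.37, adjusted p = 5.57e-12). *Cacna1h*, another T-type pore, rose in SI SMC (4.26 ± 0.67, adjusted p = 6.62e-05) and the beta subunit *Cacnb2* in colon pericytes (4.44 ± 0.47, adjusted p = 2.90e-08).

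Across all receptor lists, genes that passed the filter only with a population compared were left out, a restriction chosen after the data were seen. SI pericytes against SMC then gave 19 calls in 70 genes (27.1%, against 10.2% of all genes under the same restriction), SI pericytes against fibroblasts 24 in 68 (35.3%, against 16.7%), SI SMC against fibroblasts 9 in 69 (13%, against 5.19%) and colon pericytes against fibroblasts 22 in 68 (32.4%, against 15.8%). PDGFRahi FB against the other fibroblasts gave 7 in 69 in the SI (10.1%, against 3.43%) and 6 in 69 in the colon (8.70%, against 3.42%), and the joint test among fibroblasts 11 in 68 (16.2%, against 6.88%). Between tissues there were 6 in 69 for pericytes (8.70%, against 5.72%), 2 in 71 for Fgfr2+ FB (2.82%, against 1.48%) and 1 in 69 for PDGFRahi FB (1.45%, against 0.975%). The lists were chosen with earlier results of these data known. Adrenergic receptors contributed 4 genes higher in pericytes than in fibroblasts in each tissue, led in the SI by *Adra2a*, the Gi-coupled alpha2A receptor (412, 249.7 and 214 CPM; 10.16 ± 0.82, adjusted p = 2.11e-10; 10.78 without SI PDGFRahi FB replicate 2). Histamine receptor *Hrh1*, Gq-coupled like *Htr2a*, rose in PDGFRahi FB of the SI (65.5, 34.7 and 47.1 CPM; 4.76 ± 0.98, adjusted p = 0.00260) and of the colon (19.6, 5.36 and 10.3 CPM; 5.22 ± 0.87, adjusted p = 2.07e-04; 4.63 without colon PDGFRahi FB replicate 1).

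The genes whose levels followed each member most closely were taken by Pearson correlation over the 10 population means of log2 CPM among 14225 genes; these points share libraries and normalization, and no function is inferred. By rank (Spearman) correlation only 4 of the 24 genes were again among the closest, and the rank correlation fell as low as 0.406 (*Gm11719* with *Tacr1*), 0.438 (*St3gal1* with *Htr2a*) and 0.485 (*Gpr45* with *Cacna2d3*). *P2ry1* was followed most closely by *Med12l* (0.975), *Nsmaf* (0.973) and *Socs2* (0.967), and *P2ry14* by *Lat* (0.958), *Naip3* (0.927) and *Vwc2* (0.924). *Cacna2d3* was followed by *Wif1* (0.974), *Palmd* (0.958) and *Gpr45* (0.954), *Htr2a* by *St3gal1* (0.929), *Sccpdh* (0.925) and *Atf6b* (0.912), and *P2rx1* by *Tlr12* (0.935), *Prpf40b* (0.906) and *Ipo8* (0.892). For *Chrm3* these were *Vmn1r208* (0.937), *Cntnap2* (0.925) and *Rspo2* (0.923), for *Tacr1* *Tgif1* (0.935), *Gm11719* (0.901) and *Olr1* (0.883), and for *Htr2b* *Hells* (0.929), *Det1* (0.923) and *Bbx* (0.913). Among the members themselves the closest pairs were *Htr2a* with *Cacna2d3* (0.802), *P2rx1* with *Htr2b* (0.793) and *P2ry1* with *P2ry14* (0.630), each over 10 population means of log2 CPM. By mean CPM, *P2rx1* and *Htr2b* peaked in different populations. *Chrm2* and *Tacr2* averaged under 5 CPM in every population and were not compared.

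The positions of the genes were read from GENCODE M21 (GRCm38). *P2ry1* (chr3:61002795-61008982, plus strand) and *P2ry14* (chr3:59113855-59153618, minus strand) lie on the same chromosome, and *P2ry14* lies within *Med12l* on the opposite strand, which was also the gene most like *P2ry1* in its pattern. Of the 4291 exonic bases of *P2ry1*, 992 overlap the antisense gene *Gm37035*, and 23.0% of its 31-base words occur in transcripts of other genes. *Htr2b*, within *Psmd1* on the opposite strand, shares 252 exonic bases and 10.5% of such words. The strand setting of the counting is not given in the sources used here, so reads of these pairs may not be told apart. The other 8 members shared 1.73% or less. *Htr2a* (chr14:74640840-74709494, plus strand) and *Cacna2d3* (chr14:28904943-29721864, minus strand) also share a chromosome.

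Promoters of all 10 members (250 bases before to 50 bases after the start, RefSeq, GRCm38.p6) were searched on both strands for the CArG box of serum response factor, for TGGGAA, the core bound by the Notch effector RBPJ, and for TGGGTGGTC, bound by GLI factors; the motifs do not overlap each other. These occurred in 1.63%, 25.6% and 0.253% of 32851 promoters. No member held a CArG box or TGGGTGGTC, and TGGGAA occurred in the promoter of *P2rx1* and at 1 of the *P2ry14* starts. A match describes the sequence and is not evidence of binding. Shown are the promoters of the 3 genes described without a test and of *P2ry1*, which was called in all 4 contrasts of mural cells, with TGGGAA in capitals. The *Cacna2d3* promoter had 81.3% GC and 41 CG dinucleotides, with GC above that of 99.3% of promoters, and that of *P2ry1* had 70.7% GC and 25 CG dinucleotides, above 91.4%. The *Htr2a* promoter, in contrast, had 52.0% GC and 6 CG dinucleotides, above 46.6%, and the *P2rx1* promoter 60.7% GC and 7, above 72.2%.
*P2rx1* (chr11:72998895-72999194, plus strand): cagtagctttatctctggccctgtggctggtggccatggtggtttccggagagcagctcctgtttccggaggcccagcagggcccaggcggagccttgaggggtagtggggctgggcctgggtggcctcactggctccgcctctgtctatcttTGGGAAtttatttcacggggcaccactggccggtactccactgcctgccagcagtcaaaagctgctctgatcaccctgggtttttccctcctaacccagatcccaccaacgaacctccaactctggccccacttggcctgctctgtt
*P2ry1* (chr3:61002535-61002834, plus strand): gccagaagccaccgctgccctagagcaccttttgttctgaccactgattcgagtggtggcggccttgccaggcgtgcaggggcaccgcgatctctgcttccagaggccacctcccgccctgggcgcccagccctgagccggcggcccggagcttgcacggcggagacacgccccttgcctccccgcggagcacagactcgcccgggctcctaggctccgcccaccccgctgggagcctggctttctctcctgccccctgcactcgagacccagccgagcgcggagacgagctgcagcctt
*Htr2a* (chr14:74640624-74640923, plus strand): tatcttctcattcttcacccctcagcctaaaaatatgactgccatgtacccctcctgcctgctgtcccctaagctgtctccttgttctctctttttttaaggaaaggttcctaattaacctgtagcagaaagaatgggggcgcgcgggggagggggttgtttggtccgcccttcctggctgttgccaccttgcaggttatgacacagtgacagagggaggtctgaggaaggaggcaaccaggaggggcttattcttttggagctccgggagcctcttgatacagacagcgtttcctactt
*Cacna2d3* (chr14:29721815-29722114, minus strand): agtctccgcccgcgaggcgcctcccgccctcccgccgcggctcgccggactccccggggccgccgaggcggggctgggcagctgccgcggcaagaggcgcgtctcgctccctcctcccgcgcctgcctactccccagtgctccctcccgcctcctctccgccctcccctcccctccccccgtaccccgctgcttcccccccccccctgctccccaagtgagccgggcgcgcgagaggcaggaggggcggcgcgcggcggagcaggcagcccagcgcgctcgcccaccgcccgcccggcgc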

How the data were processed

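The authors trimmed 50 bp single reads (Trim Galore 0.4.0, FastQC 0.11.2) and quantified transcripts with kallisto 0.42.5, per the labels against mm10/GRCm38. The deposited estimated counts are expected reads per transcript, not normalized. The deposited TPM values divide them by the deposited effective length and scale each library to the same sum; TPM was not used. The transcript set and strand setting of the counting are not given in the sources used here.

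Here 97116 of 98492 transcripts were matched to 32316 symbols of GENCODE M21 and estimated counts were summed by symbol and rounded; between 97.81% and 99.19% of a library fell on genes. All 30 libraries were fitted in 1 model with edgeR 4.0.16 (R 4.3.3; TMM, quasi-likelihood test, Benjamini-Hochberg adjustment over the 17542 genes that reached 6 counts in 3 or more libraries). A call required an adjusted p under 0.05 together with a log2 fold change beyond 1.5 in either direction; contrasts against several populations used the mean of their coefficients. Scripts were tested on simulated data. No fold is given where a population compared held no count. DESeq2 1.42.0, RLE size factors, other filters, length-scaled counts, a replicate block, smaller fits, leaving out each library and leaving out genes that passed the filter only with a population compared were tried. Members and the 15 lists (165 genes) were chosen with earlier results of these data known. Named genes are the members, the called list genes with the largest fold change, the most abundant gene of a list, the 3 most similar genes and markers; of these a subset is named, and *P2rx4* was chosen after its values were seen.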

Additional observations from a re-analysis of the deposited data

Results flagged for a closer look

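Differences between SI and colon in contrasts of the same name were the only kind of result marked for another look. The fibroblasts averaged were CD34+, Fgfr2+ and PDGFRahi FB in the SI and CD81+, CD90+, Fgfr2+ and PDGFRahi FB in the colon, sorted with different gates. By an interaction test, the log2 contrast of pericytes with fibroblasts in the SI minus that in the colon was −2.01 for *P2ry14* (−1.30 in the SI and 0.71 in the colon; adjusted p = 0.0494). That call was kept without colon pericyte replicate 1 or 3 and lost with each of the other 25 libraries left out, with a difference of −0.80 without colon pericyte replicate 2. For *Chrnb1* the difference was −3.12 (−5.46 and −2.34; adjusted p = 0.0127), and for *Enpp1* it was 3.05 (−0.36 and −3.41; adjusted p = 8.11e-04; 1.90 without SI pericyte replicate 1). For *Cacna1g* it was −8.33 (−5.85 and 2.48; adjusted p = 1.79e-05; −9.09 without SI pericyte replicate 3 and −7.14 without colon pericyte replicate 2). *Rgs4* and *Rgs5*, regulators of G protein signalling that mark pericytes, differed by −3.23 (6.15 and 9.38; adjusted p = 0.00600) and −3.58 (4.74 and 8.32; adjusted p = 6.86e-06). In both, the mean level in fibroblasts also differed between the tissues: *Rgs5* averaged 31735 CPM in SI and 33472 CPM in colon pericytes, and 1923 and 166 CPM over the fibroblast populations, while *Rgs4* averaged 483 and 689 CPM in pericytes and 6.89 and 1.06 CPM over fibroblasts.

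For PDGFRahi FB against the other fibroblasts, *Entpd1* differed by −3.90 between SI and colon (−5.63 and −1.73; adjusted p = 0.00459), and with length-scaled counts by −1.02 (adjusted p = 1.00). *P2rx1* was marked without a test because its libraries split to opposite sides: SI minus colon was −42.6 CPM in pericytes, all SI libraries lying below all colon libraries, and 78.8 CPM in Fgfr2+ FB, all SI libraries lying above, where the gate differed along with the tissue. The *P2rx1* difference was not tested, since the gene was chosen on it. What underlies these differences was not tested.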

How the results depend on the processing

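Of 536 values of named genes under other settings, 517 kept their direction and side of the threshold, 12 fell short of it, 7 passed it and 0 reversed. Of 1026 values with a library left out, 977 were kept, 42 fell short, 3 passed and 4 reversed. Those that fell short include *Chrm3* in SI pericytes against fibroblasts without SI PDGFRahi FB replicate 2, where it was not testable. The reversals were *Htr2b* in SI pericytes against fibroblasts (−4.95 without SI pericyte replicate 1; highest 4.84) and, without colon pericyte replicate 2, *Htr2b* (−0.87; highest 3.04) and *P2ry14* (−0.53; highest 1.21) in colon pericytes against fibroblasts and *P2ry14* between pericytes of the tissues (0.19; lowest −1.50).

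Counts of called genes moved by over 1.5 times as follows. With only the populations compared in the fit, SI pericytes against SMC gave 390 genes in place of 1779, pericytes between tissues 0 in place of 1003 (1090 of 13361 at an unadjusted p under 0.05) and PDGFRahi FB between tissues 406 in place of 169; such fits have fewer libraries to estimate the spread. The joint test among fibroblasts gave 2131 in place of 1184 with only the 7 fibroblast populations, an alternative chosen after seeing the data. DESeq2 gave 2941 for SI pericytes against SMC, 891 in place of 593 for SI PDGFRahi FB, 2407 for pericytes, 829 in place of 255 for Fgfr2+ FB and 402 for PDGFRahi FB between tissues, and 1795 for the joint test. It also moved the share of calls that were higher from 66.2% to 55.3% (SI SMC against fibroblasts) and from 57.3% to 49.7% (SI pericytes against fibroblasts). In the colon that share moved from 58.1% to 45.7% (pericytes against fibroblasts) and from 62.9% to 49.7% (PDGFRahi FB). By Spearman correlation 4 of the 24 most similar genes remained. The cause was not tested.

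With each library left out, the counts ranged from 1267 to 2473 (SI pericytes against SMC), 2110 to 3469 (SI pericytes against fibroblasts), 530 (without SI SMC replicate 3) to 921 (SI SMC against fibroblasts), 2232 to 2825 (colon pericytes against fibroblasts), 404 to 551 (SI PDGFRahi FB) and 406 (without colon PDGFRahi FB replicate 2) to 601 (colon PDGFRahi FB). Between tissues they ranged from 616 (without SI pericyte replicate 1) to 1711 (without SI pericyte replicate 3) in pericytes, 162 (without SI Fgfr2+ FB replicate 1) to 221 in Fgfr2+ FB and 108 (without colon PDGFRahi FB replicate 3) to 122 in PDGFRahi FB, where 110 were called without SI PDGFRahi FB replicate 1; in the joint test they ranged from 965 to 1172.

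The joint test called *P2ry1* and *P2ry14* without the low-count filter (0.0485 and 0.0337), in the smaller fit (0.0406 and 0.00182) and by DESeq2 (0.0185 and 0.0405). With length-scaled counts *Htr2b* (3.66, adjusted p = 0.0573) and *Chrm3* (0.0660) were not called in SI pericytes against fibroblasts, nor *Chrm3* in the smaller fit (0.0552); with 10 counts in every library of a population, *Chrm3* was called in SI SMC (0.0424). The *P2ry14* interaction was −1.97 (0.0534) with RLE size factors and −2.02 (0.0523) in the smaller fit. Of 100 levels, 100 stayed within 1 SD with RLE size factors and 96 with length-scaled counts.

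No pairing of libraries by replicate number was detected: the mean correlation of deviations over 135 same-numbered pairs was 0.00755, and 1 pair exceeded 0.1. A shared effect of mouse or sort smaller than the noise between libraries would not show here. With the number as a replicate block, the counts were 1634, 2466, 804 and 2360 for the mural contrasts in the order above, 559 and 553 for PDGFRahi FB, 729, 245 and 177 between tissues and 1112 in the joint test. *Htr2b* (4.61, 0.0684) and *Chrm3* (0.0502) in SI pericytes against fibroblasts and the *P2ry14* interaction (−1.86, 0.0841) were then not called, and no other call of a named gene changed. Without genes that passed the filter only with a population compared, chosen after seeing the data, all 10 counts of calls stayed within 1.5 times. At the depth of these libraries *Tacr2* reached at most 16 counts, and every test rested on 3 libraries per population.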

Other observations

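*Ednra*, a receptor for endothelin, which contracts smooth muscle and pericytes, was on average the most abundant of the listed transmitter and peptide receptors. It averaged 248 CPM per kilobase over all libraries and was highest in SI PDGFRahi FB with 3105, 2757 and 2428 CPM, above SI pericytes with 2232, 971 and 1487 CPM and colon pericytes with 1659.6, 1801 and 1059 CPM. It rose in PDGFRahi FB over the other fibroblasts in the SI (3.46 ± 0.32, adjusted p = 1.52e-08) and in the colon (1.94 ± 0.28, adjusted p = 2.81e-05). *Ednrb* held 734, 582 and 1057 CPM in SI PDGFRahi FB and 246, 330.2 and 272 CPM in colon PDGFRahi FB, and rose over the other fibroblasts of each tissue (4.42 ± 0.46, adjusted p = 1.28e-07; 5.95 ± 0.41, adjusted p = 8.68e-11). SI PDGFRahi FB, the population with the highest *Cacna2d3*, thus held the highest mean of both endothelin receptors.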
